A study of Homo sapiens with 12 samples.

Results

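CFLAR, CASP1, BID and PDCD10 are 4 genes that act on apoptosis or on inflammatory cell death. Every cassette-exon event of these genes in the deposited tables was taken, with the middle exon of the event matched to the exons of GENCODE release 29, which gave 15 events of the 8712 listed in any library. BID had 7 of them, PDCD10 had 4, and CFLAR and CASP1 had 2 each. An event's inclusion was tested when at least 10 of its reads in each of the 12 libraries fitted 1 form alone, with the exon or without it. These reads are called isoform-specific, and 10 of the 15 events passed.

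The libraries came from MCF10A, a line of human breast epithelial cells that forms no tumours. Cells received siRNA against TIP60, the lysine acetyltransferase encoded by KAT5, or control siRNA, and all were harvested 72 h after transfection. The cells stably carried an empty vector (MSCV), a wild-type TIP60 that the siRNA does not target (*WT-TIP60), or such a construct without catalytic activity (*KD-TIP60), with TIP60 siRNA or control siRNA in each line. Each of the 6 groups had 2 libraries, R1 and R2, and the MCF10A background and its own KAT5 gene were common to all of them. Whether a line is 1 clone, and whether R1 and R2 came from separate cultures, is not given in the labels, so the p-values measure the spread between these libraries, which may be technical.

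Cells die by apoptosis when caspases, proteases that cut after aspartate, are switched on at death receptors or at mitochondria. CFLAR (c-FLIP) resembles caspase-8 and holds it in check at death receptors. BID is a BH3-only member of the BCL2 family that caspase-8 cuts, and the fragment carries the signal to mitochondria. CASP1 is the caspase of the inflammasome, which matures interleukin-1 beta and interleukin-18. PDCD10 (CCM3) is a scaffold of the germinal centre kinases and of striatin complexes, and its loss causes cerebral cavernous malformations.

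The exons that the results turn on are printed here from the GENCODE release 29 transcripts (GRCh38), on the strand of the gene and from 5′ to 3′. The first is the 211-nt coding exon of BID at chr22:17743803-17744013 (minus strand), in which capitals mark the codons just before the caspase-8 cut.
BID_211: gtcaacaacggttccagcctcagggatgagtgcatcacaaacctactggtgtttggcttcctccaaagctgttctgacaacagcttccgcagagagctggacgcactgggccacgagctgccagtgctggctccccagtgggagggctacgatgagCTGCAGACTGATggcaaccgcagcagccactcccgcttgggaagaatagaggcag
The next is the 63-nt coding exon of CASP1 at chr11:105033064-105033126 (minus strand), which follows the exons of the recruitment domain and keeps the reading frame when it is skipped.
CASP1_63: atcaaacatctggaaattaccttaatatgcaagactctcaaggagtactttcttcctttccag
The 144-nt coding exon of CASP1 at chr11:105029124-105029267 (minus strand) also keeps the frame, and capitals mark the codons just before both self-cleavage sites between the large and the small subunit.
CASP1_144: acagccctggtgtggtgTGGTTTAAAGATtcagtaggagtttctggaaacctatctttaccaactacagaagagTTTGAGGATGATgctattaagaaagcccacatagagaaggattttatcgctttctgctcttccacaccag
The last is the coding part, 281 of 418 nt, of the CFLAR exon that holds the start codon, at chr2:201129866-201130146 (plus strand), with the start codon in capitals.
CFLAR_418_coding: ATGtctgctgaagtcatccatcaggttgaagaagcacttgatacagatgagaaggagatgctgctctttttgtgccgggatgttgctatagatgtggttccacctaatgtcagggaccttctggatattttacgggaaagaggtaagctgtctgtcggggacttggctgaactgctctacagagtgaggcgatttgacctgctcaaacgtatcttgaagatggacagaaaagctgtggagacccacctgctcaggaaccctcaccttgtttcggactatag

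R1 libraries held 1983221 to 2280488 event reads, which fitted at least 1 form of an event, and R2 libraries held 1277953 to 1566296. Reads that fitted both forms made up 53.2% to 56.2% of event reads in R1 and 46.3% to 50% in R2. The gap was wider at member events of several genes. There were 330 such reads at the 95-nt exon of BID in R1 and 10 in R2. The 144-nt exon of CASP1 had 226 in R1 and 6 in R2, and the 132-nt exon of PDCD10 had 180 in R1 and 6 in R2. Libraries with the same number deviated together, so differences are also given within the 6 same-number pairs. KAT5 reads with its cassette exon stood at 0 to 3.95 RPM (the usual scaling of reads, here to the event reads of a library) with TIP60 siRNA and 5.31 to 17.2 with control siRNA, lower in 6 of 6 pairs. KAT5 reads without that exon were high in the construct lines, and far higher in R1 than in R2. They stood at 1650 and 76.8 RPM (R1 and R2) with TIP60 siRNA against 2290 and 93.0 with control siRNA in wild-type TIP60 cells, and at 885 and 28.2 RPM with TIP60 siRNA against 988 and 35.1 with control siRNA in catalytically dead cells. The empty-vector line had 2.52 and 0 RPM of such reads with TIP60 siRNA against 8.38 and 0.731 with control siRNA. Of the epithelial markers, 8 of 14 had event reads, together 3070 to 5500 RPM with TIP60 siRNA and 2990 to 4790 with control siRNA. Of the mesenchymal markers, 3 of 9 had reads (FN1, ZEB1 and ZEB2), together 35.4 to 2490 RPM with TIP60 siRNA and 21.9 to 827 with control siRNA. Of the immune markers, 1 of 9 had reads (LYZ), at 0 to 31.4 RPM with TIP60 siRNA and 0 to 21.1 with control siRNA. The part of these levels in the results was not tested, and in bulk RNA fewer cells of a type and less RNA per cell cannot be told apart.

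The inclusion level is MISO's estimate, between 0 and 1, of how much of the event's RNA holds the exon. Averaged over the 3 lines, the inclusion difference with TIP60 siRNA was 0.0683 (SE 0.0168) for an upstream untranslated exon of PDCD10, above 0 in 6 of 6 same-number pairs. It was −0.11 (SE 0.0275) for the exon of BID that holds the caspase-8 site, where it follows the first exon, below 0 in 6 of 6 pairs. The share of isoform-specific reads with that BID exon differed by −0.021 and was lower in 5 of 6 pairs. For the start-codon exon of CFLAR and the 144-nt exon of CASP1 the inclusion differences were −0.075 and −0.095 in empty-vector cells and between −0.015 and 0.015 in the other lines. The lowest mean reads of the BID events were those of catalytically dead cells with TIP60 siRNA. By limma with Benjamini-Hochberg adjustment over all 2695 tested events, 0 of the 10 member events passed an adjusted p of 0.05 for the average over lines, where 2.12% of all events passed. At an unadjusted p under 0.05, 4 of the 10 passed, against 12.4% of all events. The members were chosen with earlier results of these data known, and events of the same gene share reads. Member counts, here and below, are therefore no measure of enrichment over all events. With the replicate number as a block, 1 of the 10 passed, the 132-nt exon of PDCD10, against 4.16% of all events. A quasi-binomial model of the reads and limma on the read ratio, each without the block, also called that exon alone, against 3.04% and 1.48% of all events.

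**Figure D1:**
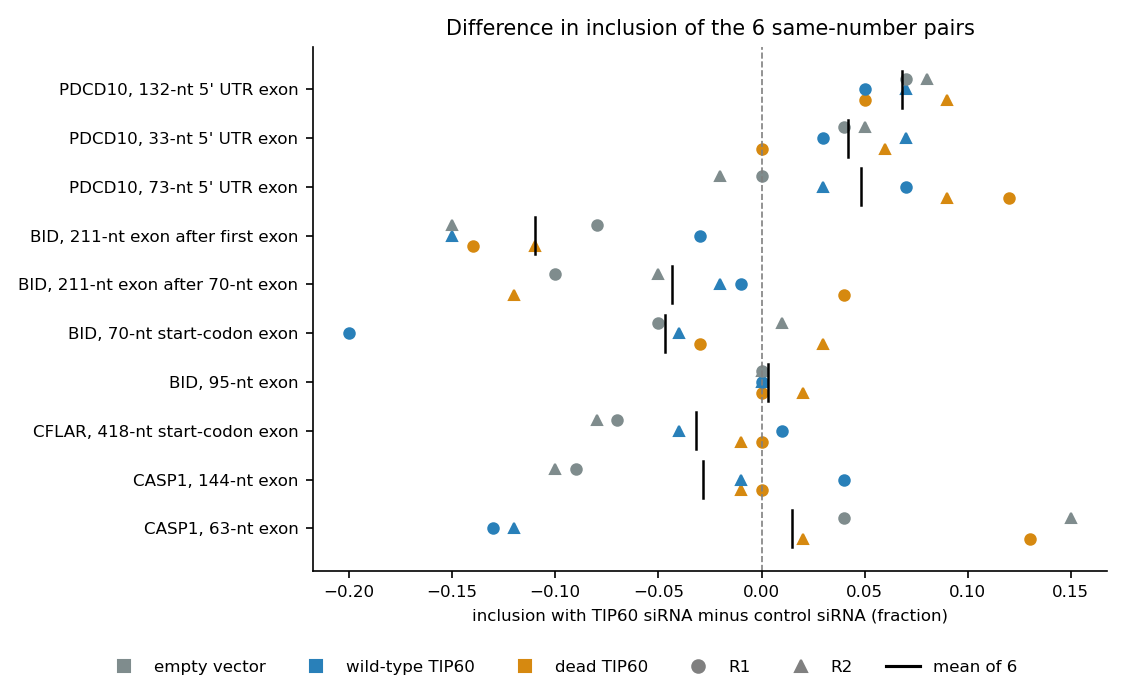
Each point is the inclusion level with TIP60 siRNA minus that with control siRNA in 1 same-number pair, for the 10 tested events (rows); colours are lines, shapes are R1 and R2, and black bars are means of the 6 pairs. The 132-nt exon of PDCD10 lies above 0 and the 211-nt exon of BID after the first exon lies below 0 in all 6 pairs.

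CFLAR stands at the receptor end of the pathway. Its start-codon exon of 418 nt (chr2:201129729-201130146, plus strand, ENSG00000003402.19) holds 281 coding nt, printed above, and the form without it is annotated for 1 transcript. In empty-vector cells its inclusion was 0.91 and 0.88 with TIP60 siRNA (R1 and R2) and 0.98 and 0.96 with control siRNA. Both TIP60-siRNA libraries of that line lay below both control libraries. In wild-type TIP60 cells it was 0.98 and 0.94 with TIP60 siRNA against 0.97 and 0.98 with control siRNA. The catalytically dead line gave 0.97 and 0.95 with TIP60 siRNA against 0.97 and 0.96 with control siRNA. In these 2 lines the siRNA groups overlapped. How often the siRNA groups of a line lay apart over all events was not counted, so separation, here and below, is a description only.

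The CFLAR difference with TIP60 siRNA was −0.075 in the empty-vector line (SE 0.0181, adjusted p = 0.316 by limma), −0.015 in wild-type TIP60 cells and −0.005 in catalytically dead TIP60 cells. In the empty-vector line 0 of the 10 member events passed the adjusted threshold, against 0.0371% of all events, and 4 had an unadjusted limma p under 0.05, against 6.49%. In wild-type TIP60 cells 0 passed (0 at an unadjusted p under 0.05), against 0% and 4.3% of all events. In catalytically dead TIP60 cells 0 passed (2 unadjusted), against 0.0371% and 6.72%. The quasi-binomial model also called 0 in each line. The siRNA effect was 0.06 higher in wild-type than in empty-vector cells (SE 0.0256, limma unadjusted p = 0.0513) and 0.07 higher in catalytically dead than in empty-vector cells (SE 0.0256, unadjusted p = 0.0289), both with an adjusted p of 1.0. Under TIP60 siRNA the exon was 0.065 higher in either construct line than in empty-vector cells (SE 0.0181, limma unadjusted p = 0.0087, adjusted p = 1.0). The comparisons with empty-vector cells share those libraries. Few reads carry the difference: the skipped form had 7 reads over the 6 TIP60-siRNA libraries and 3 over the 6 control libraries, of 2185 with the exon and 10 without it in all. In empty-vector cells it had 5 reads with TIP60 siRNA and 1 with control siRNA. The share of isoform-specific reads with the exon differed there by −0.0133 (R1) and −0.0206 (R2).

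Reads of the CFLAR event were fewer with TIP60 siRNA in every pair. They stood at 43.3 and 131 RPM with TIP60 siRNA against 73.6 and 205 with control siRNA in empty-vector cells. In wild-type TIP60 cells they were 121 and 101 RPM with TIP60 siRNA against 152 and 122 with control siRNA. The catalytically dead line had 97.8 and 115 RPM with TIP60 siRNA against 127 and 156 with control siRNA. Within a replicate number each TIP60-siRNA library lay below its control. Across numbers the siRNA groups overlapped in empty-vector cells and were apart in the other 2 lines. The mean difference was −0.47 in log2(RPM + 0.5) (two-sided exact permutation within pairs, p = 0.0312, the lowest value 6 pairs can give), but 18.7% of all 4992 events were lower in 6 of 6 pairs and limma's adjusted p was 0.78 (0.253 with the block). The second CFLAR event, a 51-nt coding exon (chr2:201149002-201149052), was listed in 3 libraries with at most 2 isoform-specific reads, overlaps the antisense gene CFLAR-AS1, and was not tested.

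**Figure D2:**
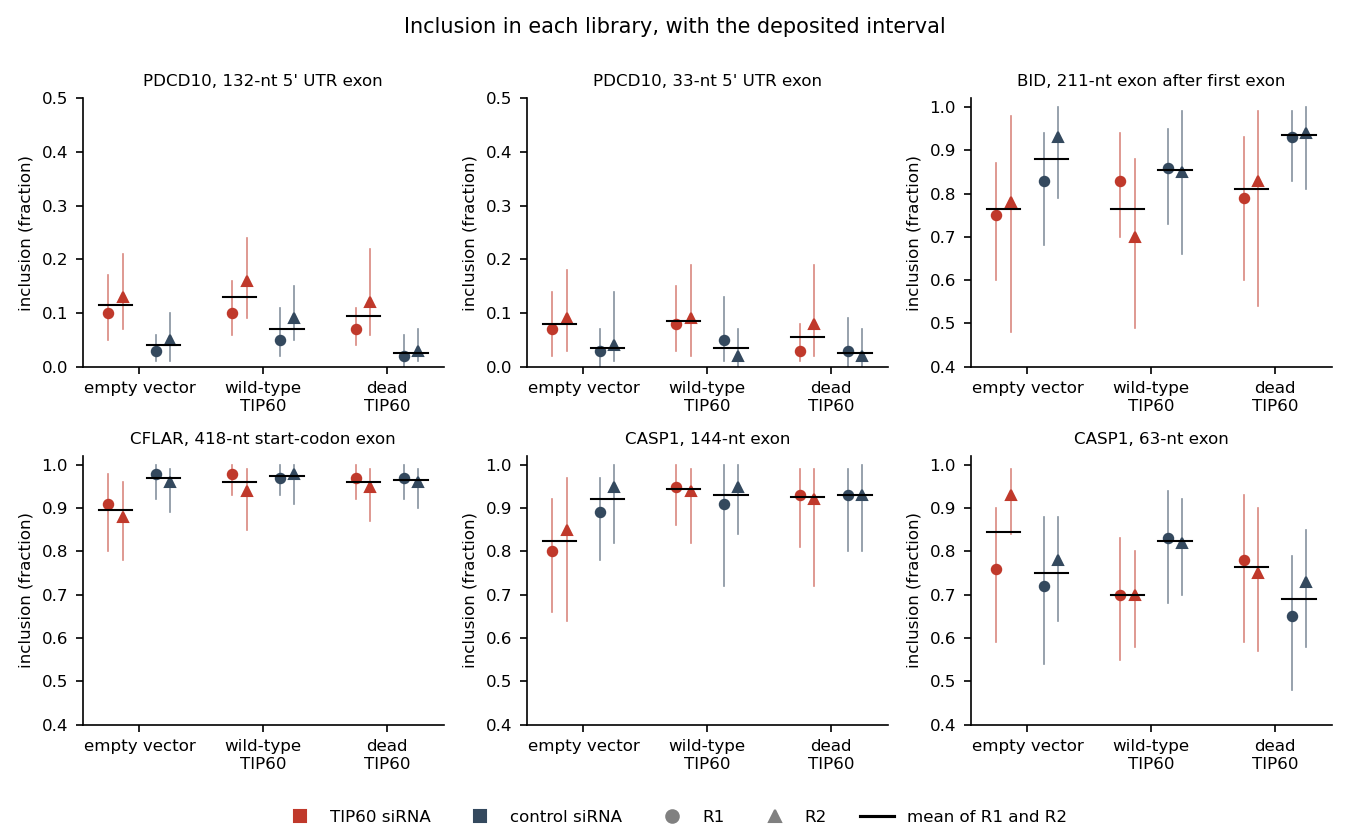
Inclusion level (fraction, vertical axis) of 6 events in each library, with TIP60 siRNA left of control siRNA in each line; vertical lines are the deposited intervals and black bars the mean of R1 and R2. The PDCD10 panels run from 0 to 0.5 and the others from 0.4 upward, and the low CFLAR and CASP1 144-nt values are those of empty-vector cells with TIP60 siRNA.

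BID passes the receptor signal on to mitochondria. Its 211-nt exon (minus strand, ENSG00000015475.18), printed above with the caspase-8 codons, is the middle exon of 2 events that share its reads. After the first exon (upstream exon chr22:17774381-17774495), its inclusion was 0.75 and 0.78 with TIP60 siRNA against 0.83 and 0.93 with control siRNA in empty-vector cells. It was 0.83 and 0.70 with TIP60 siRNA against 0.86 and 0.85 with control siRNA in wild-type TIP60 cells. In the catalytically dead line the levels were 0.79 and 0.83 with TIP60 siRNA against 0.93 and 0.94 with control siRNA. The siRNA groups did not overlap within any of the 3 lines, and how many of all events did so was not counted. Inclusion was lower in 6 of 6 pairs, as were 9.46% of all tested events.

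Averaged over the lines, that inclusion differed by −0.11 (SE 0.0275, limma adjusted p = 0.129), with −0.115, −0.09 and −0.125 in empty-vector, wild-type and catalytically dead cells. With the replicate block the adjusted p was 0.0993. Of 1156 reads with the exon and 25 without it, the TIP60-siRNA libraries held 481 and 18 and the control libraries 675 and 7. The share of isoform-specific reads with the exon differed by −0.021 on average, lower in 5 of 6 pairs (two-sided exact permutation within pairs, p = 0.0625). In the remaining pair, R2 of the catalytically dead line, neither library held a read without the exon. Inclusion there was 0.83 from 28 reads with TIP60 siRNA and 0.94 from 119 reads with control siRNA. The inclusion difference of that pair thus rests on no read of the skipped form.

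Where the 211-nt exon follows the 70-nt exon, the form without it was close to undetected, at 3 reads of it against 1937 with the exon. Its inclusion was 0.883 ± 0.0463 with TIP60 siRNA and 0.927 ± 0.0242 with control siRNA (SD, n = 6 libraries each), a difference of −0.0433 (SE 0.0205, limma adjusted p = 0.485), lower in 5 of 6 pairs. With so few skipped-form reads no difference in the read share was detectable at this depth, the shares differing by −0.00106.

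The 70-nt exon of BID (chr22:17750105-17750174) holds the start codon in 5 transcripts. Its inclusion between the first exon and the 211-nt exon was 0.875 ± 0.1 with TIP60 siRNA and 0.922 ± 0.0578 with control siRNA (SD, n = 6 each), a difference of −0.0467 (SE 0.0487, limma adjusted p = 0.9), lower in 4 of 6 pairs. The 3 other events of this exon join it to a 140-nt exon in place of the 211-nt one, and 2 of them start from other first exons. They had at most 10 isoform-specific reads in a library, were listed in 5 to 11 libraries, and were not tested. The 95-nt exon of BID (chr22:17740082-17740176), coding in 1 annotated transcript, had 0 reads of the form with it against 784 without it. This allows the form with it up to 0.383% of the isoform-specific reads (3 reads of the total, counting error only), a share of reads and not of RNA. Its inclusion was 0.01 to 0.03 with TIP60 siRNA and 0.01 with control siRNA.

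Mean reads of the tested BID events were lowest in catalytically dead cells with TIP60 siRNA. At the 95-nt exon they stood at 31.6 and 16.4 RPM with TIP60 siRNA against 64.4 and 67.7 with control siRNA in that line. The empty-vector line had 59.4 and 26.5 RPM with TIP60 siRNA against 52.6 and 58.4 with control siRNA. The wild-type TIP60 line had 61.3 and 51.4 RPM with TIP60 siRNA against 77.7 and 53.1 with control siRNA. The siRNA groups were apart in catalytically dead cells and overlapped in the other 2 lines. The 211-nt exon after the 70-nt exon showed 39.5 and 61.8 RPM with TIP60 siRNA against 79.3 and 155 with control siRNA in catalytically dead cells. It had 82.1 and 89.5 RPM with TIP60 siRNA against 68.9 and 153 with control siRNA in empty-vector cells. In the wild-type TIP60 line it had 74.1 and 128 RPM with TIP60 siRNA against 94.3 and 139 with control siRNA. The siRNA groups were again apart in catalytically dead cells alone.

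In catalytically dead cells the 4 tested BID events differed with TIP60 siRNA by −1.51 (95-nt exon), −1.16 and −1.37 (211-nt exon after the 70-nt and after the first exon) and −0.864 (70-nt exon) in log2(RPM + 0.5). Their limma adjusted p-values were 0.831 to 1.0, and 0.059 to 0.194 with the replicate block, where 2.84% of all 4992 events passed. In that line 0 of the 11 member events passed without the block and 2 had an unadjusted p under 0.05, against 0% and 4.67% of all events. The events share exons and reads, so they are not separate measurements of BID. Averaged over the lines, 0 of the 11 member events passed for reads without the block (1 at an unadjusted p under 0.05), against 0.741% (11.0% unadjusted) of all events. With the block 2 of 11 passed, against 16.8% of all events: the 95-nt exon at −0.727 (limma adjusted p = 0.0418) and the 211-nt exon after the 70-nt exon at −0.553 (adjusted p = 0.0429). With the block kept and 1 library left out in turn, the differences were −0.869 to −0.586 for the first and −0.669 to −0.437 for the second. Both calls were lost in most of these fits. The siRNA effect on reads was not shown to differ between catalytically dead and wild-type TIP60 cells, at −1.32 for the 95-nt exon (SE 0.749, limma adjusted p = 1.0, also with the block).

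**Figure D3:**
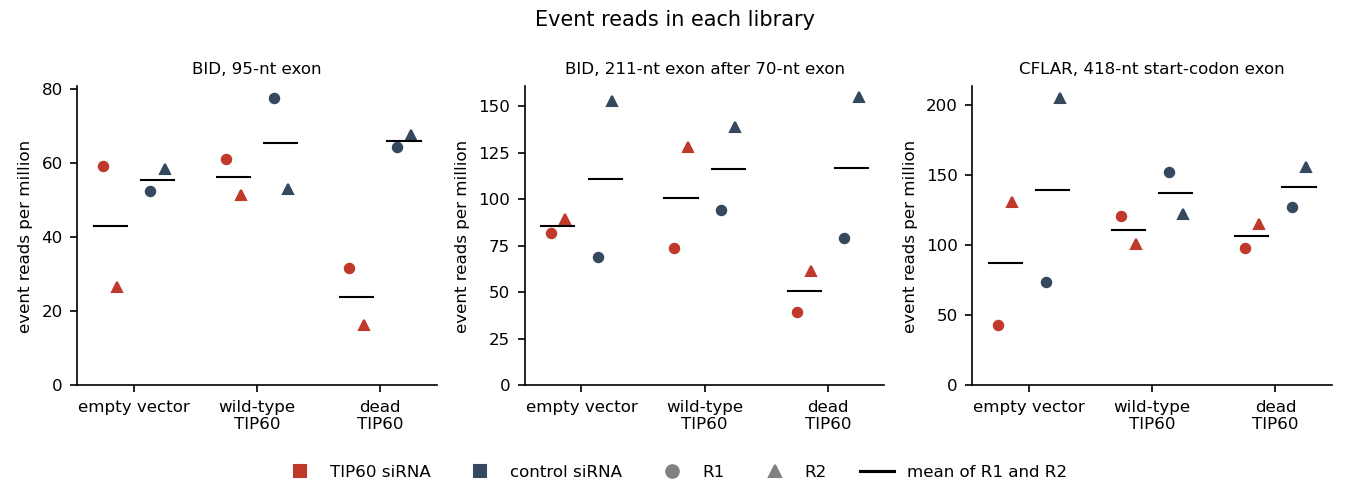
Event reads in RPM (vertical axis) in each library for 2 BID events and the CFLAR start-codon exon, with TIP60 siRNA left of control siRNA and black bars for the mean of R1 and R2. The lowest BID means are those of catalytically dead TIP60 cells with TIP60 siRNA.

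**Figure D4:**
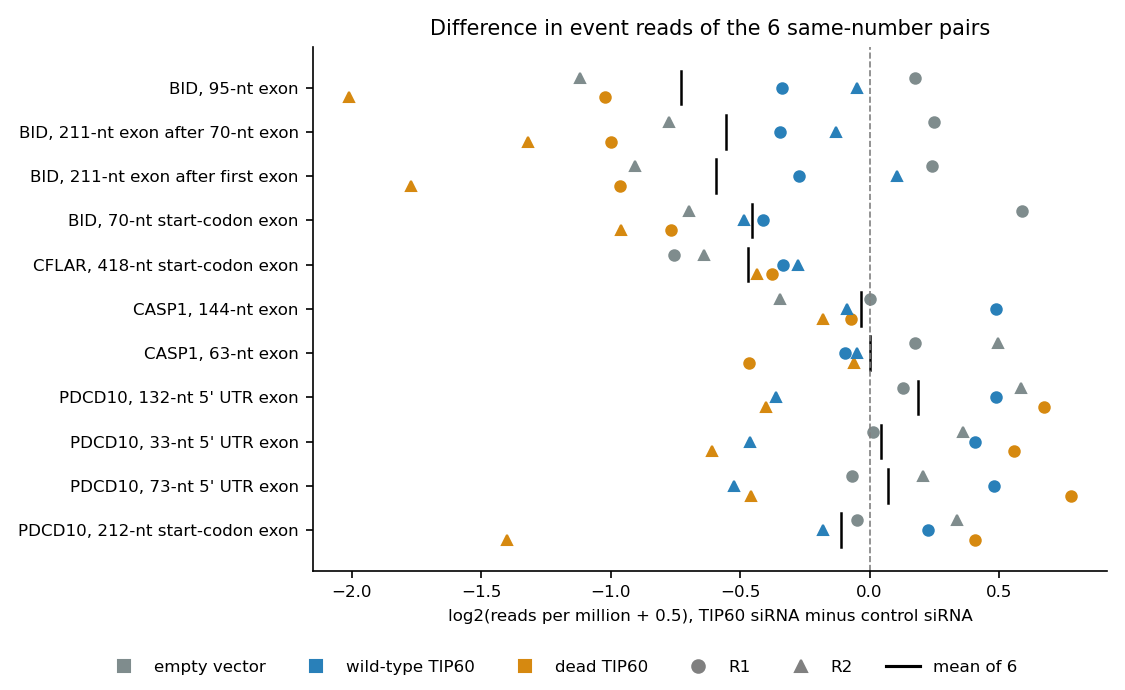
Difference in log2(RPM + 0.5), TIP60 siRNA minus control siRNA, in each same-number pair for the 11 events listed in all 12 libraries; colours are lines, shapes R1 and R2, black bars the mean of 6 pairs. The CFLAR event is below 0 in 6 of 6 pairs, and the catalytically dead line gives the lowest BID points.

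CASP1 is the inflammasome protease. Its 144-nt exon (ENSG00000137752.23), printed above, carries the segment that the enzyme cuts when it activates itself. Inclusion was 0.80 and 0.85 with TIP60 siRNA against 0.89 and 0.95 with control siRNA in empty-vector cells. It was 0.95 and 0.94 with TIP60 siRNA against 0.91 and 0.95 with control siRNA in wild-type TIP60 cells. The catalytically dead line gave 0.93 and 0.92 with TIP60 siRNA against 0.93 in both libraries with control siRNA. The siRNA groups were apart in empty-vector cells, while in the other lines they lay within 0.04 of each other.

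The difference of the 144-nt exon with TIP60 siRNA was −0.095 in the empty-vector line (SE 0.0274, adjusted p = 0.404 by limma), 0.015 in wild-type TIP60 cells and −0.005 in catalytically dead TIP60 cells. The effect was 0.11 higher in wild-type than in empty-vector cells (SE 0.0387, limma unadjusted p = 0.0247, adjusted p = 1.0). Under TIP60 siRNA the exon was 0.12 higher in wild-type TIP60 cells (SE 0.0274, unadjusted p = 0.00313) and 0.1 higher in catalytically dead TIP60 cells (unadjusted p = 0.00798) than in empty-vector cells, both with a limma adjusted p of 1.0. Only 8 reads of the skipped form were found, 6 with TIP60 siRNA and 2 with control siRNA, against 851 with the exon. In empty-vector cells there were 4 such reads with TIP60 siRNA and 2 with control siRNA. The share of isoform-specific reads with the exon differed there by −0.0148 (R1) and −0.0286 (R2).

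The 63-nt exon of CASP1 had 78 reads of the skipped form against 532 with the exon. Its inclusion was 0.76 and 0.93 with TIP60 siRNA against 0.72 and 0.78 with control siRNA in empty-vector cells. It was 0.70 in both libraries with TIP60 siRNA against 0.83 and 0.82 with control siRNA in wild-type TIP60 cells. The catalytically dead line gave 0.78 and 0.75 with TIP60 siRNA against 0.65 and 0.73 with control siRNA. The exon was thus lower in both wild-type pairs and higher in the other 4 pairs, with differences of −0.125 in wild-type cells, 0.095 in empty-vector cells and 0.075 in catalytically dead cells (SE 0.0551 each). The effect differed by −0.22 between wild-type and empty-vector cells (SE 0.0779, limma unadjusted p = 0.0256) and by 0.2 between catalytically dead and wild-type cells (SE 0.0779, unadjusted p = 0.0372), both with an adjusted p of 1.0. For the siRNA effect between lines, 0 of the 10 member events passed by limma or by the quasi-binomial model, as did 0% of all events by limma. At an unadjusted limma p under 0.05, 2 passed for wild-type against vector, 1 for dead against vector and 1 for dead against wild-type cells, against 1.63%, 1.34% and 1.19% of all events. CASP1 has close paralogs similar in sequence to its recruitment-domain exons, and how reads were divided between them was not tested. No other annotated gene overlaps the exons of either CASP1 event.

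Event reads of CASP1 were close between the siRNAs. The 144-nt event had 49.1 ± 19.1 RPM with TIP60 siRNA and 48.4 ± 12.9 with control siRNA, and the 63-nt event 42.9 ± 13.3 with TIP60 siRNA and 41.9 ± 7.78 with control siRNA (SD, n = 6 libraries each). The log2 differences were −0.03 and 0.00136, with limma adjusted p-values of 0.998 each.

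PDCD10 had 3 tested events, all for exons of its 5′ untranslated region (minus strand, ENSG00000114209.14). The exons of 132 nt (chr3:167734214-167734345) and 33 nt (chr3:167734214-167734246) share an end, and with the 73-nt exon (chr3:167725401-167725473) they are each set against the same skipped form, so the 3 events share those reads. The bases of the 33-nt exon lie within the 132-nt exon, and both join the same next exon. The same reads can therefore count as reads with the exon for both, and how many did was not tested. Inclusion of the 132-nt exon was 0.10 and 0.13 with TIP60 siRNA against 0.03 and 0.05 with control siRNA in empty-vector cells. It was 0.10 and 0.16 with TIP60 siRNA against 0.05 and 0.09 with control siRNA in wild-type TIP60 cells. The catalytically dead line gave 0.07 and 0.12 with TIP60 siRNA against 0.02 and 0.03 with control siRNA. The siRNA groups were apart in each line, and across lines the only overlap was between the lowest TIP60-siRNA library at 0.07 and the wild-type control library at 0.09.

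Averaged over the lines, inclusion of the 132-nt exon was higher by 0.0683 with TIP60 siRNA (SE 0.0168, limma adjusted p = 0.122), in 6 of 6 pairs (two-sided exact permutation within pairs, p = 0.0312), against 2.34% of all tested events. With the replicate number as a block it passed (SE 0.00971, limma adjusted p = 0.0189), as did 4.16% of all tested events. Leaving out 1 library in turn with the block kept gave differences of 0.0633 to 0.0733, and the call was lost in many of these fits. The quasi-binomial model gave an adjusted p of 0.0247 and the read ratio, by limma, one of 0.0453. The effect was close in size in the 3 lines, at 0.075, 0.06 and 0.07 in empty-vector, wild-type and catalytically dead cells, and its differences between lines were −0.015 to 0.01 (SE 0.0411 each).

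Reads with the 132-nt exon were 12 and 14 with TIP60 siRNA against 4 and 3 with control siRNA in empty-vector cells. They were 16 and 14 with TIP60 siRNA against 5 and 11 with control siRNA in wild-type TIP60 cells, and 13 and 8 with TIP60 siRNA against 1 and 3 with control siRNA in the catalytically dead line. In RPM they averaged 7.55 ± 2.0 with TIP60 siRNA and 2.71 ± 2.36 with control siRNA (SD, n = 6 each), higher in 6 of 6 pairs, as were 8.41% of all events. Reads without the exon averaged 22.6 ± 4.03 RPM with TIP60 siRNA and 24.1 ± 5.16 with control siRNA, higher in 3 pairs and lower in 3.

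**Figure D5:**
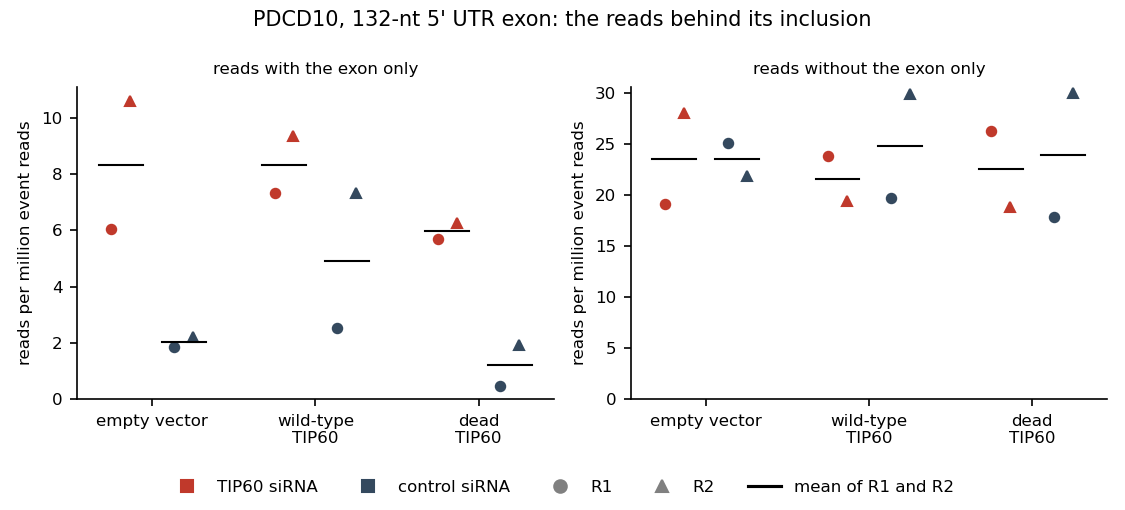
Reads in RPM (vertical axes from 0) that fit only the form of PDCD10 with the 132-nt exon (left) or only the form without it (right), in each library, with TIP60 siRNA left of control siRNA and black bars for the mean of R1 and R2. With the exon, the TIP60-siRNA library is above its same-number control in 6 of 6 pairs; without it, in 3 of 6.

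The 33-nt exon had 20 reads of the form with it in TIP60-siRNA libraries and 4 in control libraries, higher in RPM in 6 of 6 pairs. Its inclusion was 0.0733 ± 0.0225 with TIP60 siRNA and 0.0317 ± 0.0117 with control siRNA (SD, n = 6 each), a difference of 0.0417 (SE 0.013, limma adjusted p = 0.212), higher in 5 of 6 pairs and equal in 1. The 73-nt exon stood at 0.27 ± 0.0522 with TIP60 siRNA and 0.222 ± 0.0857 with control siRNA, a difference of 0.0483 (SE 0.0423, limma adjusted p = 0.834, 0.0608 with the block). It was 0.105 higher with TIP60 siRNA in catalytically dead cells, 0.05 higher in wild-type cells and 0.01 lower in empty-vector cells. Its R2 libraries lay above the R1 library of the same group in every group, as did those of the 132-nt exon.

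The start-codon exon of PDCD10 (212 nt, chr3:167720062-167720273, 96 of its nt coding) missed the read minimum, with 3 isoform-specific reads in its lowest library, while the 95-nt exon of BID was the lowest that passed, with 19. No read of the form without the 212-nt exon was found in any library against 556 with it. This allows that form up to 0.54% of the isoform-specific reads (3 reads of the total, counting error only). It is a share of reads and sets no such limit on the share of RNA. The deposited inclusion of the 212-nt exon was 0.54 to 0.82 with TIP60 siRNA and 0.44 to 0.79 with control siRNA. Its deposited intervals were 0.54 to 0.92 wide and reached down to 0.02 in the R2 control library of catalytically dead cells. Event reads of the PDCD10 exons differed with TIP60 siRNA by −0.11 to 0.187 in log2(RPM + 0.5), with limma adjusted p-values of 0.951 to 0.996.

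The 10 tested events spanned from near 0 to near 1 in inclusion. The group means of the 95-nt BID exon ranged over 0.01, those of the 33-nt PDCD10 exon over 0.06 and those of the 211-nt BID exon after the first exon over 0.17, the widest. Between constructs at a fixed siRNA, 0 of the 10 member events passed for inclusion and 0 of the 11 for reads in any of the 6 comparisons by limma, as did 0% of all events. At an unadjusted p under 0.05, inclusion of 3 events differed between wild-type and empty-vector cells under TIP60 siRNA and of 2 between catalytically dead and empty-vector cells, against 2.45% and 2.56% of all events, and 0 between catalytically dead and wild-type cells, against 2.49%. Under control siRNA the counts in that order were 0, 0 and 1, against 1.56%, 0.779% and 0.816%. For reads, 2 events had an unadjusted p under 0.05 between catalytically dead and wild-type cells under TIP60 siRNA, against 1.7% of all events, and 0 in the other 5 comparisons. The largest differences in inclusion were both in the 63-nt exon of CASP1, at −0.145 in wild-type TIP60 against empty-vector cells under TIP60 siRNA (SE 0.0551, limma unadjusted p = 0.0338, adjusted p = 1.0). Under control siRNA the largest was −0.135 in catalytically dead against wild-type TIP60 cells (SE 0.0551, limma unadjusted p = 0.0441, adjusted p = 1.0).

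Over the 6 group means, the events of other genes most like the 132-nt exon of PDCD10 were in NUP62 (Pearson r = 0.949), ADD3 (0.943) and SEC31A (0.941). The 211-nt exon of BID after the first exon was closest to events in POLDIP3 (0.98), STOML1 (0.978) and MTA1 (0.974). The CFLAR exon was closest to events in ERRFI1 (0.997), HCG18 (0.992) and STAT3 (0.992). The 144-nt exon of CASP1 resembled events in CHP1 (0.989), TNPO3 (0.984) and KANSL1 (0.982), and its 63-nt exon events in RAB1A (0.962), PTPA (0.961) and TCEAL8 (0.947). The 33-nt exon of PDCD10 was closest to events in SEC31A (0.991), SZRD1 (0.981) and RNF14 (0.962), and its 73-nt exon to FAM118B (0.964), SMARCE1 (0.959) and COPE (0.947). For BID, the 211-nt exon after the 70-nt exon was closest to TGIF1 (0.979), RGS3 (0.976) and LRRC75A-AS1 (0.973), and the 70-nt exon to IQCJ-SCHIP1 (0.994), NEO1 (0.968) and ITGB1BP1 (0.962). The 95-nt exon was not compared, its group means being all but equal. These are descriptions over 6 points that share libraries, picked from 1516 to 1518 candidate events.

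Other genes of apoptosis were read from a list of 103 genes in 8 roles, of which 47 had a listed event and 28 a tested one, with 39 tested events. For inclusion averaged over the lines, 0 of the 39 passed by limma (2 higher and 2 lower at an unadjusted p under 0.05), against 2.12% of all events (12.4% unadjusted). With the replicate block 1 of the 39 passed, with lower inclusion, against 4.16% of all events. The median difference of the 39 events was −0.00667, the same as over all tested events. A 147-nt exon of BCLAF1, a BCL2-associated transcription factor, differed by −0.23, at 0.513 ± 0.0922 with TIP60 siRNA and 0.743 ± 0.0799 with control siRNA (limma adjusted p = 0.0605), lower in 6 of 6 pairs, as were 9.46% of all tested events.

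A 62-nt exon of API5, an inhibitor of apoptosis, stood at 0.0617 with TIP60 siRNA and 0.0167 with control siRNA (limma adjusted p = 0.17), and an 84-nt exon of PDCD4, an inhibitor of translation, at 0.0583 with TIP60 siRNA and 0.025 with control siRNA (adjusted p = 0.266), both higher in 6 of 6 pairs, as were 2.34% of all tested events. A 77-nt exon of CASP6, an executioner caspase, was at 0.853 with TIP60 siRNA and 0.905 with control siRNA (limma adjusted p = 0.48), and a 171-nt exon of BCL2L13, a mitochondrial BCL2 relative, at 0.957 and 0.975 (adjusted p = 0.603). The CASP6 exon was lower in 4 pairs and higher in 2, and the BCL2L13 exon was lower in 6 of 6 pairs.

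For reads, 1 of 75 events of the list passed averaged over the lines, in TNFRSF1A, the main receptor of TNF, which was named after its value was seen. Its 129-nt exon event (chr12:6333737-6333865, minus strand) had 105 ± 24.4 RPM with TIP60 siRNA and 236 ± 15.9 with control siRNA (SD, n = 6 each), a log2 difference of −1.20 (SE 0.209, limma adjusted p = 0.0485), lower in 6 of 6 pairs, as were 18.7% of all events. The highest TIP60-siRNA library, at 141 RPM, lay below the lowest control library, at 215. Leaving out 1 library in turn without the block gave adjusted p-values of 0.0742 to 0.198, so that the call was lost in each. The other settings gave 0.00109 (the block) to 0.158 (isoform-specific reads only), and the call was also lost with median-ratio scaling. With the block, 5 of the 75 events were higher and 11 lower, 6 of them among the 34 of the BCL2 family, against 16.8% of all events called. The median log2 difference without the block was −0.19 over the list and −0.10 over all events.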

How the data were processed

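RNA of 12 libraries was aligned with STAR to hg38, per the submitters' processing notes, which name no version. Per the file headers, the deposited fraction is the MISO posterior mean of inclusion with its interval bounds, taken as 95%. The deposited tables also hold raw numbers of reads per class (with the exon only, without it only, both, neither), a unit recorded as other, which were used as deposited. Their number limits the precision, and floors of 3 reads cover counting error only. R1 and R2 libraries differ in depth and in the share of reads that fit both forms, so levels are read within a number.

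Exons were placed with GENCODE release 29. Inclusion (2695 events) and log2(RPM + 0.5), RPM being event reads scaled to the library's total, (4992 events) were compared with limma 3.58.1 in R 4.3.3, with 1 factor of 6 groups, a variance trend, the robust option and Benjamini-Hochberg adjustment over all events, threshold 0.05; p-values are two-sided. Event reads cover the exons of an event and are no gene count. Replicate numbers, from the titles, pair the libraries: deviations from group means correlated at 0.706 to 0.779 for inclusion and 0.583 to 0.896 for reads in 15 of 15 group pairs. The block is therefore given where it changes a call. Single events were also tested by exact paired permutation.

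Every tested event of the 4 genes is described; of the wider list, the 6 events of smallest p for the average over lines were chosen, 1 of which is not reported here, and likeness uses the 3 highest r among events whose group means span at least 0.05. The members and lists were chosen with earlier results of these data known. The fits were tested on simulated data. Alternatives were read minimums, pseudocounts, scalings, log2 odds, read ratios, a quasi-binomial model with 0.5 added to each class, and each library left out; the read models with a block and the leave-one-out fits with a block were chosen after seeing the data.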

Additional observations from a re-analysis of the deposited data

Results flagged for a closer look

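The 63-nt exon of CASP1 differed in opposite directions between lines, with both pairs of 1 line on one side of 0 and both pairs of another on the other side. Its siRNA effect on inclusion in wild-type TIP60 cells minus that in empty-vector cells was −0.22 (SE 0.0779, limma unadjusted p = 0.0256, adjusted p = 1.0), and that in catalytically dead cells minus that in wild-type cells was 0.2 (SE 0.0779, unadjusted p = 0.0372, adjusted p = 1.0). For the log2 reads of the same event, the effect in wild-type minus that in empty-vector cells was −0.408 (SE 0.678, unadjusted p = 0.562), and in catalytically dead minus empty-vector cells −0.599 (SE 0.678, unadjusted p = 0.401), with adjusted p-values of 1.0. None of these differences passed the adjusted threshold. With 2 libraries a group, no library could be tested as standing apart from its group.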

How the results depend on the processing

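Of 56 single results under 1344 alternatives, 1295 kept their direction and their side of the threshold, 26 moved past it, 0 dropped below it and 23 changed sign. No member event passed the threshold by limma without the block, so none could drop below it, and keeping its side meant staying uncalled. For inclusion averaged over the lines, the number of member events past the threshold was 0 without a block, 1 with the replicate block, with the read ratio, with the quasi-binomial model and with the blocked read ratio, and 3 with the blocked quasi-binomial model (both PDCD10 exons of 132 and 33 nt, adjusted p = 0.00066 and 0.0479, and the 211-nt BID exon after the first exon, 0.0465). With the block kept in the limma fit, the number varied with the library left out, as did the number over all events. The blocked quasi-binomial model called 1 member event, the 132-nt exon, in empty-vector cells and 1 in catalytically dead cells, against 0 without the block. Over all 2695 events it called 63 and 84 in these lines, against 2 and 3 without the block. For reads averaged over lines the number was 0 by limma without the block and 2 with it, where 0.741% and 16.8% of all events passed. With the block kept, it too varied with the library left out. The numbers of member events with all pairs in 1 direction were 2 to 4 for inclusion and 1 to 4 for reads with 1 library left out. 

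Sign changes were all in differences that did not pass. In empty-vector cells the 73-nt PDCD10 exon gave 0.0848 and, with the block, 0.0023 (log2 odds, quasi-binomial), and −0.065 to 0.045 with 1 library left out, and the 70-nt BID exon −0.065 to 0.025. In wild-type TIP60 cells the 144-nt CASP1 exon gave −0.00407 by read ratio with or without the block, −0.511 and −0.468 by the quasi-binomial model, and −0.005 to 0.035 with 1 library left out; the CFLAR exon ranged from −0.035 to 0.005 and the 73-nt PDCD10 exon from −0.01 to 0.11. In catalytically dead cells the 211-nt BID exon after the 70-nt exon gave 0.00314 by read ratio with or without the block and −0.095 to 0.015 with 1 library left out, and the CFLAR exon −0.015 to 0.005. Averaged, the 63-nt CASP1 exon ranged from −0.0133 to 0.0433. Its dead-minus-vector effect ranged from −0.105 to 0.065, and that of the 144-nt exon was −0.0212 and −0.000173 by the quasi-binomial models. The cause was not tested.

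Over all events the average comparison called 57 for inclusion, 112 with the block, 22 with no read minimum, 368 with the blocked quasi-binomial model and 7 to 34 with 1 library left out. It called 37 for reads, 837 with the block, 86 with at least 20 event reads, 16 with median-ratio scaling, 2 with isoform-specific reads only and 0 to 11 with 1 library left out. A lone library left in a group is assumed to vary like the other groups. Fits on only the libraries of a comparison cannot give the average over lines.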
